A study of Mus musculus with 6 samples.

Results

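The 9 genes described here encode the 4 mouse JAK kinases (Jak1, Jak2, Jak3 and Tyk2) and 5 STAT transcription factors (Stat3, Stat4, Stat5a, Stat5b and Stat6). They were taken by symbol from a table of 24628 genes, and all 9 passed the filter on low values, as did 12731 genes in all. RNA-seq was done on 3 conditional knockout (cKO) libraries and 3 libraries with floxed alleles of Rora, titled Rora fl/fl, from mouse lymphocytes that the series text calls ILC1s, group 1 innate lymphoid cells. Rora encodes the nuclear receptor RORα. The cKO libraries are titled treatment, which no label ties to the knockout; their group was assigned by elimination, since their columns add the name Ncr1 to Rora and the floxed columns do not. Ncr1 encodes the activating receptor NKp46. The labels give no age, sex, treatment agent, sort gate or number of animals, do not say whether the floxed alleles were also present in the cKO libraries, and do not name the driver of the deletion. The series text calls the cells used for comparison wild type. Nothing states that replicates are different mice, so each p-value reflects variation among these 6 libraries alone, possibly of technical origin.

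JAK kinases sit on the inner tails of cytokine receptor chains and are switched on when a cytokine brings the chains together. They then phosphorylate the receptor and the STAT factors that dock there, and the STATs pair, enter the nucleus and change transcription. In NK cells and ILC1s, IL-15 signals through JAK1 and JAK3 to STAT5, and IL-12 through JAK2 and TYK2 to STAT4. These routes are known for survival and for interferon-γ production.

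Jak1 rose in the cKO libraries to 122% of the floxed mean, and none of the other 8 genes passed the test in either direction. The Jak1 call was kept in 8 of 15 alternative settings, and in 1 of the 6 that left out a library. Jak1 was at 215.7 ± 2.98 RPKM (reads divided by gene length and library size) in cKO and 177.1 ± 1.96 RPKM in floxed libraries (SD, n = 3 each). Jak2, Jak3, Tyk2 and the 5 STAT genes had mean levels in cKO libraries at 91.7 to 103% of the floxed mean, and their values overlapped between the groups.

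A pair of promoter windows is shown because one belongs to the member that passed the test and the other to a member that did not pass but holds a nuclear receptor half-site. All 9 genes matched RefSeq promoter windows of 300 bases (250 before to 50 after a gene start, GRCm38.p6), 12 windows in all. The capitals mark AGGTCA, the half-site to which ROR receptors and many other nuclear receptors bind, searched on both strands. The Jak1 window lies at chr4:101265174-101265473 on the minus strand and the Stat6 window at chr10:127642736-127643035 on the plus strand, and both are written 5′ to 3′ along the gene.
Jak1: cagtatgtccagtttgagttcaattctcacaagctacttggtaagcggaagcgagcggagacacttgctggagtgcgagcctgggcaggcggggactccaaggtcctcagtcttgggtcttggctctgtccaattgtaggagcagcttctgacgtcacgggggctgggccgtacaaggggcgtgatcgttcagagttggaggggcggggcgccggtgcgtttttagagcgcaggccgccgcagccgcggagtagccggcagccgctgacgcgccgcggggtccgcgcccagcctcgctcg
Stat6: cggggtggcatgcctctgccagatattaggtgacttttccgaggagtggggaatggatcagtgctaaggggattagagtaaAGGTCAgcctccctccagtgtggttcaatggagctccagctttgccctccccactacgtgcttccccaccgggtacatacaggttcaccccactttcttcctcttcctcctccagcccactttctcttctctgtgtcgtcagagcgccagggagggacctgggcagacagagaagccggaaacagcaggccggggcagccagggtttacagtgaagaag
The Jak1 window holds no AGGTCA in either direction, and the Stat6 window holds 1, at position -169 from the RefSeq start counted as 0. Among the members' windows, 5 of 12 hold the half-site, those of Stat5a (both windows), Stat6, and 1 of the pair of windows each of Stat4 and Stat5b, against 16.3% of 32851 windows of all genes. The STAT motif TTCNNNGAA, which reads the same on both strands and can share end bases with AGGTCA, is in 0 of the 12 and in 8.30% of all windows. A match describes letters in the window and does not show binding, and the absence of a match says only that these letters are not in this window.

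The libraries held 21111333 to 22440170 reads assigned to genes in the cKO and 20152146 to 21711523 in the floxed group. Rora was at 5.69, 6.29 and 6.24 RPKM in cKO libraries and at 6.92, 7.41 and 7.91 RPKM in floxed libraries, a log2 difference of -0.25 that did not pass in limma (adjusted p = 0.242). Which exons the deletion removes is not stated in the labels, so a value over the whole gene does not check it. All 12 genes listed as defining ILC1s and NK cells were detected, with 1 higher (Eomes) and 3 lower (Ncr1, Cd226 and Cxcr6) in limma. Eomes was at 65.8 and 42.4 RPKM, Cd226 at 29.1 and 45.2 RPKM and Cxcr6 at 4.69 and 8.90 RPKM, cKO before floxed. The list thus moved in both directions. Its summed level was 905 to 932 RPKM in cKO and 1059 to 1080 RPKM in floxed libraries, a sum in which Ncr1 weighs heavily. Among the 12 were Ncr1 (246 ± 12.5 RPKM in cKO and 372 ± 10.8 RPKM in floxed libraries) and Klrb1c, which encodes NK1.1 (99.4 ± 4.01 and 103 ± 5.09 RPKM in the same order of groups). Beside these 12, 0.652% of all tested genes passed as higher and 0.668% as lower in limma. Of 6 B cell markers 4 stayed under 1 RPKM in every library, among them Ms4a1 and Pax5, and so did 2 of 7 T cell markers, 4 of 8 myeloid and dendritic cell markers and 4 of the 6 ILC2 and ILC3 markers with values here. Other markers were detected in both groups, given here as cKO and floxed means. From the T cell list these included Cd4 (27.6 and 27.7 RPKM), Cd3d (13.0 and 12.7 RPKM) and Cd3g (12.9 and 13.0 RPKM). Itgax (65.8 and 56.1 RPKM) and Lyz2 (20.9 and 23.4 RPKM) were among those of the myeloid list, and Cd22 (6.49 and 9.93 RPKM) of the B cell list.

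Among the kinases, Jak1, which serves most cytokine receptors of lymphocytes, was at 219.1, 214.4 and 213.6 RPKM in cKO libraries and at 176.5, 179.3 and 175.5 RPKM in floxed libraries. All 3 cKO values lay above all 3 floxed values, with a gap between the groups several times wider than either group. On the log2(RPKM + 1) scale, the cKO mean minus the floxed mean was 0.28 (SE 0.034, 95% confidence interval 0.20 to 0.36), a fold of 1.22. Limma, fitted across all 12731 genes, gave a Benjamini-Hochberg adjusted p = 0.0164, which is under the threshold of 0.05. In RNA from a mixed or sorted population, a change in how many cells express a gene and a change in RNA per cell cannot be told apart.

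**Figure D1:**
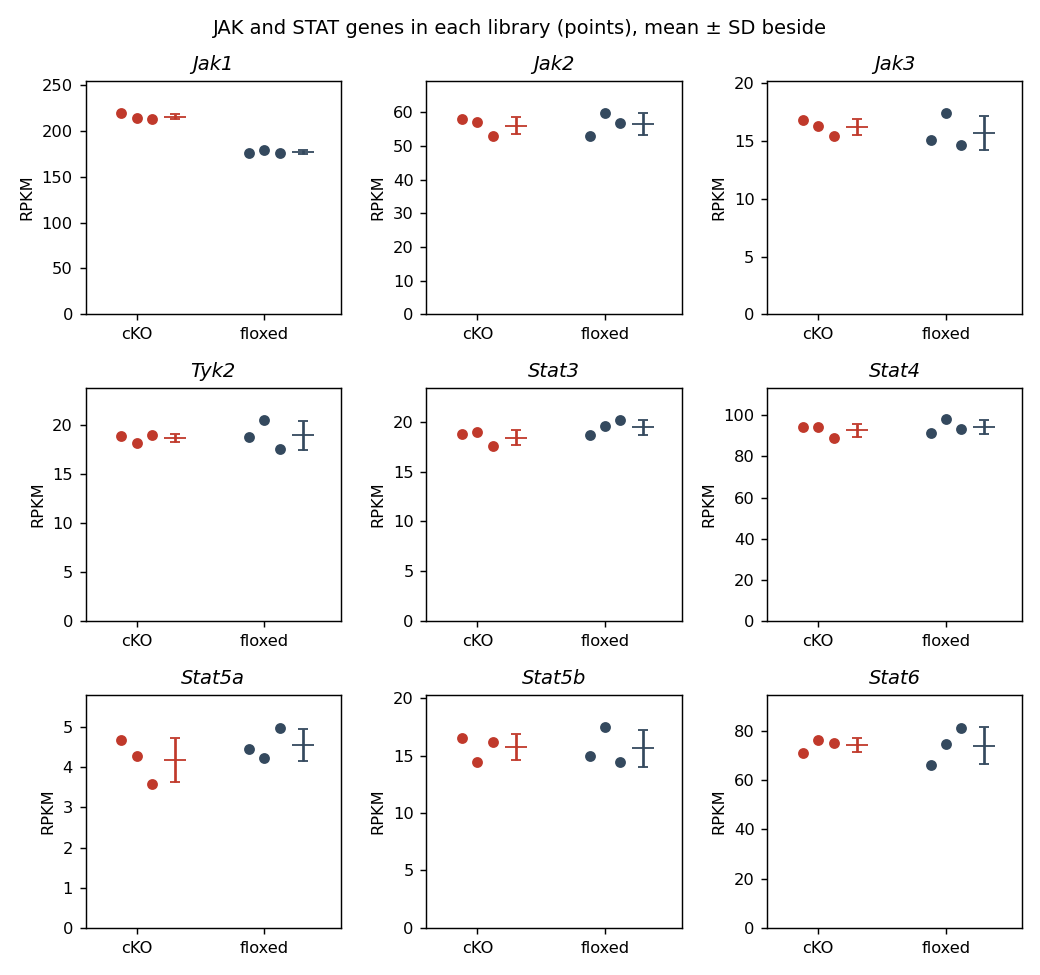
RPKM (vertical axes, each starting at 0) of the 9 JAK and STAT genes in the 3 cKO libraries and the 3 floxed libraries, 1 point per library, with the group mean and SD beside the points. The Jak1 values of the cKO libraries (213.6 to 219.1 RPKM) lie above those of the floxed libraries (175.5 to 179.3 RPKM), and in the other 8 panels the groups overlap.

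By size, the Jak1 difference ranked 80th of the 83 genes called higher, and by level the gene ranked 13th among them. Jak1 rested on 26109 to 35537 reads per library. The spread over replicates was 1.38% of the mean in cKO and 1.11% in floxed libraries, the smallest of the 9 genes in both groups. Its call was kept in 8 of 15 alternatives, and it was lost in limma when any library but floxed replicate 2 was left out (adjusted p = 0.0567 to 0.0905, log2 difference 0.27 to 0.29). Without floxed replicate 2 it was kept (adjusted p = 0.0492 in limma). It was also lost without the mean-variance trend (adjusted p = 0.116). With limma voom on whole reads recovered from the table, the difference was 0.28 and adjusted p = 1.71e-07.

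**Figure D2:**
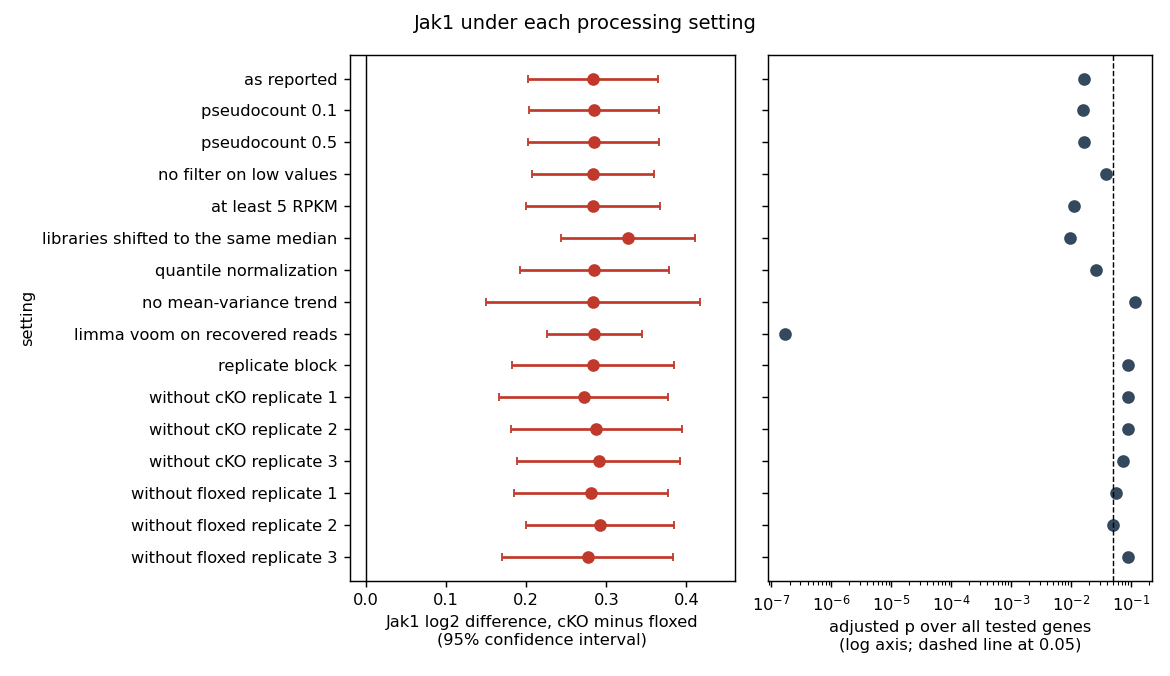
Left, the Jak1 log2 difference (cKO minus floxed) with its 95% confidence interval under each processing setting, and right, the adjusted p over all tested genes on a log axis with the threshold of 0.05 dashed. The difference stays between 0.27 and 0.33 in every setting drawn, while the adjusted p lies on both sides of the threshold.

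The same cKO libraries differed from the floxed ones in other measures, whose part in the Jak1 result was not tested. Of 25 tested immediate-early and stress genes 17 rose and 0 fell in limma (20 higher and 2 lower at an unadjusted p under 0.05, 20 and 1 called with voom), and the summed level of the list was 4091 to 4162 RPKM in cKO and 2790 to 2834 RPKM in floxed libraries. Of 21 interferon-stimulated genes 3 fell and 0 rose in limma (9 lower and 0 higher unadjusted, 4 and 0 with voom), summing to 311 to 315 RPKM in cKO and 379 to 390.0 RPKM in floxed libraries. Beside both lists, 1.32% of all tested genes passed in limma, 14.1% unadjusted and 4.18% with voom, in either direction. Xist, the RNA of the inactive X chromosome, was at 9.43 ± 0.394 RPKM in cKO and 31.9 ± 3.16 RPKM in floxed libraries, and the Y-linked Ddx3y at 20.8 ± 0.438 and 10.4 ± 0.498 RPKM in the same order. Every library held both RNAs, and the labels give no sex. The levels of both separate the same groups as the knockout, so a part of sex in any difference cannot be told apart from it.

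Summed levels of the marker lists also moved or overlapped with the groups. The 6 B cell markers summed to 7.83 to 8.90 RPKM in cKO and 13.4 to 13.6 RPKM in floxed libraries. Of 2 tested, Cd22 passed as lower in limma, and both were lower at an unadjusted p under 0.05. The other, Cd79b, reached 1 RPKM in every floxed library but only in replicate 1 of the cKO libraries. It met the filter on low values through the floxed group, so nothing is read from its place. The 7 T cell markers summed to 53.9 to 59.6 RPKM in cKO and 59.3 to 62.8 RPKM in floxed libraries. Of 5 tested, Cd3e passed as lower in limma and 4 did not pass. Log2 differences of those 4 were 0.05 for Cd3d, -0.01 for Cd3g, -0.0045 for Cd4 and -0.85 for Cd8b1. Cd8b1 met the filter on low values only through the floxed libraries, where it was higher, so nothing is read from its difference. Among all tested genes 1.32% passed in limma in either direction. The 8 myeloid and dendritic cell markers summed to 83.1 to 92.1 and 78.1 to 87.3 RPKM, and the ILC2 and ILC3 markers to 2.34 to 3.91 and 1.75 to 2.28 RPKM, cKO before floxed in each pair of ranges. In limma 0 of the 3 tested myeloid and dendritic cell markers passed, with 1 higher at an unadjusted p under 0.05 and 1 called by voom. The 1 tested ILC2 and ILC3 marker, Il22, did not pass in limma and was not called by voom. It met the filter on low values only through the cKO libraries, where it was higher. Its place as higher without adjustment is therefore not read as a result. The part of these markers in the Jak1 result was not tested. Each of the 24628 genes had a value above 0 in at least 1 library, so no marker with values could be at 0 in all 6. Of 8 ILC2 and ILC3 markers listed, 6 had values, and Il13 and Il17a were absent.

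Jak2, the kinase of the IL-12 and interferon-γ receptors among others, was at 57.9, 57.1 and 53.1 RPKM in cKO libraries and 52.9, 59.7 and 56.9 RPKM in floxed libraries. Jak3, which binds the common γ chain of the IL-2 receptor family, was at 16.8, 16.3 and 15.5 RPKM in cKO libraries and 15.1, 17.4 and 14.7 RPKM in floxed libraries. Tyk2, the partner kinase of the IL-12 and type I interferon receptors, was at 18.9, 18.2 and 19.0 RPKM in cKO libraries and 18.8, 20.5 and 17.6 RPKM in floxed libraries. In each of these 3 genes the floxed values were spread more widely and enclosed the cKO values. The log2 differences were -0.01 for Jak2 (95% confidence interval -0.16 to 0.13), 0.04 for Jak3 (-0.14 to 0.23) and -0.02 for Tyk2 (-0.18 to 0.14). Limma's adjusted p-values were 0.957, 0.860 and 0.932. The upper bound of each interval lies below the Jak1 difference of 0.28, but the Jak3 interval overlaps the Jak1 interval (0.20 to 0.36).

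The level of Jak1 was also set against its family as ratios within each library, which do not depend on depth. The log2 ratio of Jak1 to Jak2 RPKM was 1.92, 1.91 and 2.01 in cKO libraries and 1.74, 1.59 and 1.62 in floxed libraries. That of Jak1 to Tyk2 was 3.54, 3.56 and 3.49 in cKO libraries and 3.23, 3.13 and 3.32 in floxed libraries. That of Jak1 to Jak3 was 3.701, 3.72 and 3.79 in cKO libraries and 3.54, 3.36 and 3.58 in floxed libraries. In all 3 ratios the cKO values lay above the floxed values, by 0.30, 0.30 and 0.24 between the means. Jak1 is the numerator of all 3 and the other kinases differed little, so the ratios restate the Jak1 difference and add no separate support. An exact permutation test of each gave a two-sided p = 0.1, the smallest that 20 assignments of 6 libraries allow, and adjusted p = 0.133 over the 4 ratios computed, so this permutation test cannot take a ratio past the threshold.

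**Figure D3:**
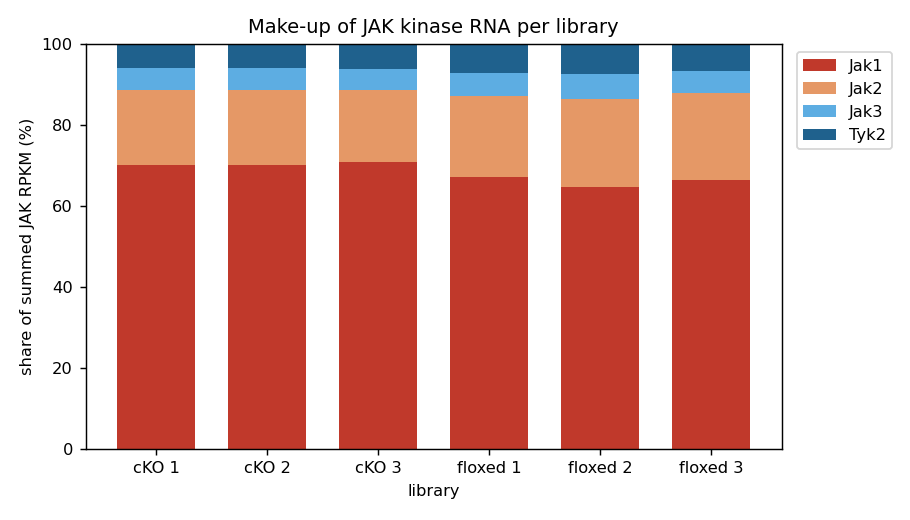
Share of the summed JAK RPKM (vertical axis, percent) held by each of the 4 kinase genes, stacked, in the 3 cKO libraries and the 3 floxed libraries. Jak1 holds 70.1 to 70.9% in cKO and 64.7 to 67.0% in floxed libraries.

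Per gene length, Jak1 made up 70.4 ± 0.501% of the summed JAK RPKM in cKO libraries and 66.0 ± 1.16% in floxed libraries. The share of Jak2 was 18.3 ± 0.564% and 21.1 ± 0.824%, that of Tyk2 6.09 ± 0.191% and 7.06 ± 0.398%, and that of Jak3 5.28 ± 0.129% and 5.86 ± 0.385%, cKO before floxed. The summed JAK level was 306.6 ± 5.85 RPKM in cKO and 268 ± 7.47 RPKM in floxed libraries, with Jak1 as the only kinase gene whose groups were apart. Shares add to a whole, so a higher share of one gene lowers the others without a change in their own levels.

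Stat4, the factor downstream of IL-12, had the highest level of the 5 STAT members and was at 94.4, 94.4 and 89.1 RPKM in cKO libraries and 91.3, 98.0 and 93.1 RPKM in floxed libraries. Stat6, the factor downstream of IL-4, was at 71.0, 76.4 and 75.3 RPKM in cKO libraries and 66.1, 74.6 and 81.3 RPKM in floxed libraries. Stat3, used by IL-6, IL-10 and IL-21, was at 18.7, 19.0 and 17.5 RPKM in cKO libraries and 18.7, 19.6 and 20.2 RPKM in floxed libraries. The groups overlapped in all 3, and the floxed Stat6 values ranged most widely.

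Log2 differences of these factors were -0.02 for Stat4 (95% confidence interval -0.13 to 0.09), 0.01 for Stat6 (-0.18 to 0.20) and -0.08 for Stat3 (-0.22 to 0.06). None passed in limma (adjusted p = 0.877, 0.973 and 0.634). The sign of the Stat4, Stat6, Jak2 and Tyk2 differences turned under another scaling of the libraries, so no direction is given for them.

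Stat5b and Stat5a, neighbouring paralogs that carry IL-2 and IL-15 signals, differed in level. Stat5b was at 16.5, 14.4 and 16.2 RPKM in cKO libraries and 14.9, 17.5 and 14.5 RPKM in floxed libraries. Stat5a was at 4.67, 4.28 and 3.58 RPKM in cKO libraries and 4.46, 4.22 and 4.98 RPKM in floxed libraries. Every Stat5b value lay above every Stat5a value, and neither gene separated the groups. The log2 differences were 0.01 for Stat5b (95% confidence interval -0.20 to 0.23, adjusted p = 0.971 in limma) and -0.10 for Stat5a (-0.37 to 0.16, adjusted p = 0.746 in limma). Stat5a rested on 564 to 769 reads per library and had the widest interval of the 9 genes.

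The log2 ratio of Stat5a to Stat5b was -1.82, -1.76 and -2.18 in cKO libraries and -1.75, -2.05 and -1.54 in floxed libraries, and the groups overlapped (difference -0.14, exact permutation test, two-sided p = 0.5). On average Stat5a stood at 0.264 of the Stat5b level in cKO and at 0.292 in floxed libraries. Of the stretches of 50 bases in annotated Stat5a transcripts, 8.21% also occur in Stat5b transcripts, and 10.98% of those of Stat5b occur in Stat5a. Reads from these stretches could be split between the pair, so the levels of both are uncertain to that extent. Jak1, Jak2 and Stat6 share no such stretch with a transcript of another gene.

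**Figure D4:**
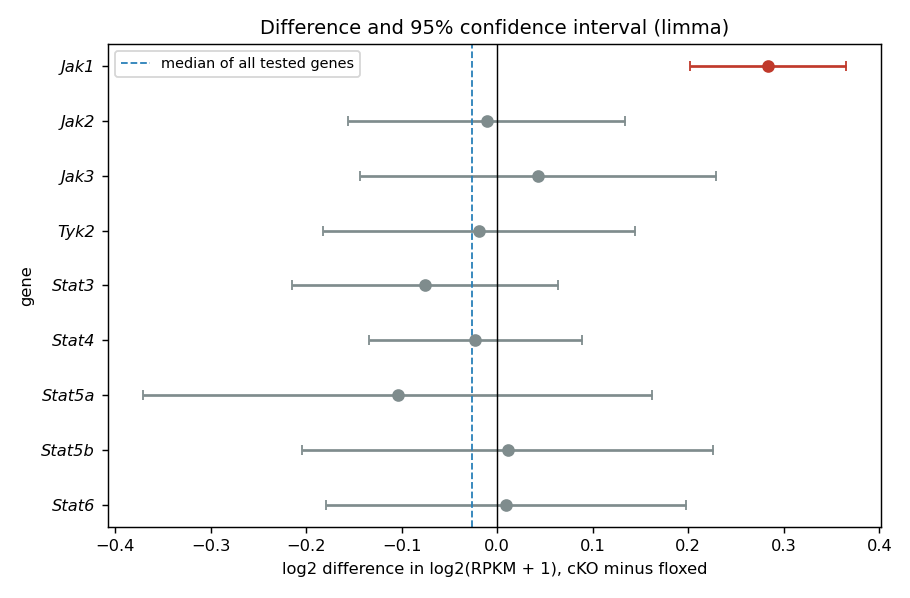
Log2 difference on the log2(RPKM + 1) scale (horizontal axis, cKO minus floxed) with the 95% confidence interval from limma for the 9 members, in red where the gene passed. The Jak1 interval (0.20 to 0.36) lies above 0, those of the other 8 members include 0, and the dashed line marks the median of all tested genes at -0.03.

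Counted together, 1 of the 9 members passed as higher and 0 as lower in limma, where 0.652% of all tested genes passed as higher, 0.668% as lower and 1.32% in either direction. At an unadjusted p under 0.05, 1 member lay higher and 0 lower, against 14.1% of all genes in either direction and 8.6% lower. With voom 1 was called higher and 0 lower, against 1.76% and 2.42% of all genes. The cKO and floxed values did not overlap in 1 of the 9, against 20.3% of all tested genes. The median log2 difference was -0.01 over the members and -0.03 over all tested genes. Nothing is read from the 1 call in 9 about the family.

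The order of levels was the same at its top in both groups. Jak1 stood first, followed by Stat4, Stat6 and Jak2, and in each group the values of neighbours in this order did not overlap. Stat3 and Tyk2 overlapped in level, and so did Jak3 and Stat5b. Stat5a was lowest, at 4.18 ± 0.551 RPKM in cKO and 4.55 ± 0.390 RPKM in floxed libraries, below every value of the other 8 genes. Over all 6 libraries Jak1 was above 97.9% of tested genes by mean RPKM and Stat5a above 37.0%.

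Exons of some members share bases with other genes, which bears on how reads could be assigned. Stat4 (chromosome 1, 51987148 to 52107189, plus strand, mm10) shares 1033 bases, 26.7% of its length, with Gm28177, a predicted gene on the same strand. The sources used here do not give whether a read in the shared exons was counted for 1 gene or for several. Jak3 shares 7.55% of its length with Insl3 on the same strand, and Tyk2 8.07% with 1700084C06Rik on the opposite strand. Insl3 was at 3.78 ± 0.477 RPKM in cKO and 3.58 ± 0.556 RPKM in floxed libraries, and 1700084C06Rik at 16.5 ± 3.78 and 19.3 ± 1.40 RPKM. Jak1 (chromosome 4, 101152367 to 101265282, minus strand, 28 exon blocks) shares 4 bases with Raver2, Stat6 shares 40 with Nab2 and Stat3 shares 72 with Stat5a, each on the opposite strand. Raver2 was at 1.80 ± 0.196 RPKM in cKO and 1.83 ± 0.234 RPKM in floxed libraries, and Nab2 at 13.9 ± 0.250 and 15.0 ± 0.991 RPKM.

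Stat2, a STAT factor of type I interferon signalling, was measured beside the members. It was at 11.4, 10.2 and 11.7 RPKM in cKO libraries and 12.2, 15.0 and 13.6 RPKM in floxed libraries. Every cKO value lay below every floxed value. The log2 difference was -0.27 (95% confidence interval -0.49 to -0.05), and Stat2 did not pass in limma (adjusted p = 0.273) or with voom (adjusted p = 0.0954).

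Chains of receptors that signal through JAK kinases passed as lower or did not pass, whether or not the chain itself binds a kinase. Il2ra, the α chain of the IL-2 receptor, fell to 7.45 ± 0.725 RPKM in cKO libraries, against 14.5 ± 0.638 RPKM in floxed libraries (limma adjusted p = 0.00649). Il7r, the IL-7 receptor α chain, fell to 190.5 ± 1.93 RPKM, against 228 ± 5.49 RPKM in floxed libraries (adjusted p = 0.0279). Il2rb, the β chain shared by the IL-2 and IL-15 receptors, was at 238 ± 4.21 and 245 ± 3.31 RPKM (adjusted p = 0.689), and Ifngr1, the ligand-binding chain of the interferon-γ receptor, at 162 ± 3.24 and 194 ± 8.81 RPKM (adjusted p = 0.0551), cKO before floxed. Of 20 tested chains 0 rose and 2 fell in limma, against 0 higher and 8 lower without adjustment (p under 0.05), and voom called 0 higher and 4 lower. Over all tested genes 0.668% fell in limma, 8.6% lay lower without adjustment, and voom called 2.42% lower. The median log2 difference of the chains was -0.13, beside -0.03 over all genes. Leaving out a library, whichever it was, ended the Il7r call (limma adjusted p = 0.0875 to 0.135) but not the Il2ra call.

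Regulators of the pathway held 1 called gene among 24. Socs3, an inhibitor of cytokine signalling that STAT3 induces, rose to 101 ± 2.70 RPKM in cKO libraries, against 70.0 ± 3.37 RPKM in floxed libraries (limma adjusted p = 0.00606). Ptprc, which encodes the phosphatase CD45, was at 316 ± 11.5 and 295 ± 9.95 RPKM (adjusted p = 0.384), and Ptpn6, which encodes the phosphatase SHP-1, at 146 ± 5.23 and 153 ± 4.10 RPKM (adjusted p = 0.544), cKO before floxed. The list had 1 gene higher and 0 lower in limma. Without adjustment 3 lay higher and 2 lower, voom called 2 higher and 2 lower, and the median was 0.04. Among all tested genes 1.32% passed in limma, 14.1% without adjustment and 4.18% with voom, in either direction.

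Genes known as STAT targets lay on both sides of 0. Junb, an AP-1 subunit gene that is also in the immediate-early list above, rose to 443 ± 20.4 RPKM in cKO libraries, against 306 ± 24.8 RPKM in floxed libraries (limma adjusted p = 0.0207). Mcl1, a survival gene of the BCL2 family, was at 121 ± 6.19 and 108 ± 6.65 RPKM (adjusted p = 0.312), and the kinase gene Pim1 at 77.2 ± 0.872 and 69.7 ± 2.56 RPKM (adjusted p = 0.200), cKO before floxed. Of 21 tested targets 1 rose and 0 fell in limma, against 5 higher and 6 lower without adjustment, voom called 2 higher and 3 lower, and the median was -0.04. Shares of all tested genes, in either direction, were 1.32% in limma, 14.1% without adjustment and 4.18% with voom. The Junb call was lost when any cKO library or floxed replicate 3 was left out (limma adjusted p = 0.0621 to 0.0914).

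**Figure D5:**
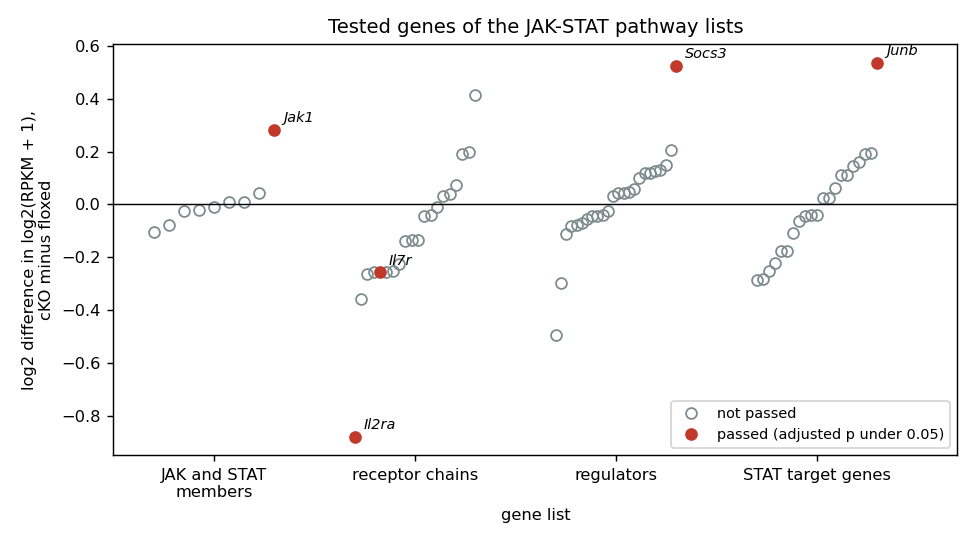
Log2 difference on the log2(RPKM + 1) scale (vertical axis, cKO minus floxed) of each tested gene of the members and of 3 lists of pathway genes, sorted within a list, with passing genes filled and named. Each list has genes on both sides of 0, and the 5 filled points are Jak1, Il2ra, Il7r, Socs3 and Junb.

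Genes with values close to those of Jak1 over the 6 libraries were found by the root mean square difference of mean-centred log2(RPKM + 1) values. The search covered 4324 genes with a mean of at least 10 RPKM. Predicted genes (Gm and Rik names), microRNA genes, pseudogenes, repeated identifiers and names starting with a digit were left out. The closest of the 4324 were Hsp90aa1 (0.0117), Rps14 (0.0258), Rnf187 (0.0277), Cracr2a (0.0279) and Cd247 (0.0314), in log2 units. Hsp90aa1, which encodes a cytosolic chaperone, was at 343 ± 1.34 RPKM in cKO and 285 ± 2.92 RPKM in floxed libraries. Cd247, which encodes the ζ chain of antigen and Fc receptors, was at 32.4 ± 0.365 and 26.1 ± 0.598 RPKM. The measure follows the gap between the groups, which Jak1 and these genes share in size, and all 6 libraries enter it.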

How the data were processed

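RNA-seq was analysed in 3 cKO and 3 floxed libraries. Per the labels' protocols, TRIzol RNA entered a stranded mRNA kit. Per the submitters' processing notes, tools were edgeR 3.12.1, STAR 2.5.3a, Subread 1.5.1 and featureCounts, on mm10; the sources used here give no roles, strand setting or annotation. The authors deposited RPKM with exon coordinates and gene lengths in bases. RPKM multiplied by length fell on whole reads for 100% of values within 0.001 reads.

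Limma 3.58.1 in R 4.3.3 (trend) was fitted without covariates to log2(RPKM + 1) of the 12731 genes reaching 1 RPKM in 3 or more libraries, two-sided, with Benjamini-Hochberg adjustment over all of them and a threshold of 0.05. Fold changes on this scale understate low genes. Scripts were tested on simulated data. Within groups, library pairs had a chi-square per gene of 6.79 to 15.8 in genes with 500 or more summed reads and 4.96 to 5.47 at 20 to 100, where independent reads would give about 1, and each library counted as 1 replicate. Of genes with 1 to 19 recovered reads, 76.8 to 79.8% had an even number. Recovered reads are therefore not independent counts, no counting error is given, and the voom results use them as they are.

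Named genes were the 9 members, Stat2, from each pathway list up to 4 passing genes (smallest p) and 2 more (highest level), genes sharing exon bases, and the 5 genes closest to Jak1. Members and lists were chosen with earlier results of these data known. Promoters are RefSeq's, 50-base stretches GENCODE M21's. Some genes covered by this rule are not reported here.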

Additional observations from a re-analysis of the deposited data

How the results depend on the processing

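The cause of each shift below was not tested. Of all genes, 83 were higher and 85 lower; the numbers were 44 and 36 with no filter on low values, 39 and 35 without the mean-variance trend, 224 and 308 with voom on recovered reads, 37 and 23 with the replicate block, and 33 to 50 and 27 to 39 with 1 library left out. Shifting libraries to the same median gave 124 higher and 71 lower. The count of members called higher was 0 without the trend and 0 with the replicate block, and 0 to 1 with 1 library left out; with the block Jak1 had a log2 difference of 0.28 and adjusted p = 0.0876. Libraries with the same replicate number deviated from their group means with correlations of -0.03, 0.01 and 0.04. Pairs with different numbers gave -0.0981 to 0.0861. Deviations from means of 3 libraries cannot settle whether same-numbered libraries were prepared together. Il7r lost its call in 9 of 15 alternatives and Junb in 6 of 15. Among members that did not pass, signs turned on a common median for Jak2 (0.0329), Tyk2 (0.0249) and Stat4 (0.0209), and likewise for Il2rb (0.0050), and with quantile normalization for Tyk2 (0.0027) and Stat6 (-0.0073). With 1 library left out the log2 difference was -0.0565 to 0.0282 for Jak2, -0.0026 to 0.11 for Jak3, -0.0705 to 0.0373 for Tyk2, -0.0444 to 0.0060 for Stat4, -0.0391 to 0.0894 for Stat5b and -0.0688 to 0.0783 for Stat6. The 3 ratios of Jak1 to other kinases, which share Jak1 as numerator, kept their sign in 7 of 7 alternatives each. Stat5a was not tested at 5 RPKM. How far depth limits the members' precision was not tested.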
